A study of Mus musculus with 2 samples.

Results

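The genes described here are the collagen chains: every row of both count tables whose symbol is Col, a number, the letter a and a number, and nothing more. The rule took 44 of the 32183 genes in the tables. The 2 libraries, CGSMG1 and CGSMG2 (libraries 1 and 2 below), are single-cell suspensions of the celiac and superior mesenteric ganglia of mice, the sympathetic ganglia that supply the abdominal organs. They form 1 group, and the series used 20 animals aged 7 to 8 weeks, as many males as females. The labels name no strain, transgene, treatment or agent, and do not say which animals went into which library. The contrasts below are therefore between cell classes within each library. Their p-values rest only on how far differences between classes vary between these 2 libraries, which may be technical. That spread is estimated over all classes together and drawn towards the spread of other genes.

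Collagens are secreted or membrane-anchored proteins whose alpha chains wind around each other into a helix, and each type is built from a limited set of chains. Fibrillar types (I, II, III, V, XI, XXIV, XXVII) form the fibrils of connective tissue, type IV forms the network of basement membranes, type VI forms beaded filaments, and the fibril-associated types (IX, XII, XIV, XVI, XIX, XX) decorate fibrils. Types XV and XVIII are proteoglycans of basement membrane zones, types XIII, XVII, XXIII and XXV span the cell membrane, and a ganglion holds fibroblasts, a perineurial sheath, vessels and glia, each known as a source of extracellular matrix.

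Some of the genes lie close to one another, and promoter sequence is shown for a few whose levels set a cell class apart in the results. Col4a4 (minus strand) and Col4a3 (plus strand) start head to head on chromosome 1 with 71 bases between them in the GENCODE M21 annotation of GRCm38, and both were highest in perineurial cells. The letters that separate the pair are printed first, at chr1:82586850-82586920, read on the minus strand from RefSeq's promoter table of GRCm38.p6. The other sequences are the 150 bases before the start of Col3a1 (chr1:45311388-45311537, plus strand), led by fibroblasts, Col28a1 (chr6:8192618-8192767, minus strand) and Col11a1 (chr3:114030390-114030539, plus strand), high in glia, Col5a3 (chr9:20815068-20815217, minus strand), the type V chain that neurons held near the glial level, and Col13a1 (chr10:61979109-61979258, minus strand), led by blood endothelial cells. None of these 5 windows overlaps an annotated exon. Capitals mark matches to the motif CCAAT, the motif TATAAA or the motif GGGCGG, each searched on both strands, so that a match on the other strand shows its reverse complement.
Col4a4 to Col4a3 interval: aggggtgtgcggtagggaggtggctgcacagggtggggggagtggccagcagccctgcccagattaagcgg
Col3a1: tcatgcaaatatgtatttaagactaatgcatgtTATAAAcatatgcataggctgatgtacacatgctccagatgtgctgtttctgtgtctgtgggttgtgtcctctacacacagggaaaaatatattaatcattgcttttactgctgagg
Col28a1: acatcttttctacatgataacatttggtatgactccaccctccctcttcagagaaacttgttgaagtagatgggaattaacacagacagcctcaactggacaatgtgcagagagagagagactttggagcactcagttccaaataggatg
Col11a1: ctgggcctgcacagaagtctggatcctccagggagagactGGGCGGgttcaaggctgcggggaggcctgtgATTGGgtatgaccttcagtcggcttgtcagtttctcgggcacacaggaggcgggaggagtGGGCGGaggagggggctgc
Col5a3: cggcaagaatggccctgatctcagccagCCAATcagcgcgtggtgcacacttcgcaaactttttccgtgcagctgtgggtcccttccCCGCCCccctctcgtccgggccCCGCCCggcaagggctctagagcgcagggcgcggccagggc
Col13a1: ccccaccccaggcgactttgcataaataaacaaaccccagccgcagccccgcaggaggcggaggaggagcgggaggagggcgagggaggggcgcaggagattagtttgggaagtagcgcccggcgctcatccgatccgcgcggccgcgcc
Of the sequences shown, Col3a1 had the TATAAA match, Col11a1 and Col5a3 each had 1 CCAAT and 2 GGGCGG matches, and the rest had none. RefSeq's table held a promoter for 35 of the 44 collagen genes. Of these 35, 8 held CCAAT, 4 TATAAA and 19 GGGCGG in the same window. Among all 32851 promoters in that table the shares were 24.5%, 7.57% and 28.6%. The units differ: a collagen gene counts if any of its promoters held the motif (38 promoters for the 35 genes), while these shares count single promoters.

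The libraries held 94521010 and 95235439 unique molecular identifiers (UMIs, 1 per captured RNA molecule), and 64 cell barcodes occurred in both. After 581 and 619 predicted doublets were set aside, 12013 and 11660 cells were grouped without the collagen rows on a random part of the UMIs. The rest of the UMIs gave every level and test below, in counts per 1000000 UMIs of the class (CPM). Classes were named from markers that hold no collagen, and a class name stands for cells like that type. The 14 classes ranged from 36 and 29 cells (lymphatic endothelial) to 2253 and 2280 (fibroblast), and neurons, taken at 5000 UMIs or more, numbered 230 and 193. Th, the noradrenergic enzyme, was highest in neurons, at 359 and 301 CPM. The 12 fibroblast markers summed to 49797 and 49673 CPM in fibroblasts, 20260.0 and 19359 in perineurial cells and 1193 and 752 in macrophages. Satellite glia included 1 cluster led by the interferon-response genes Ifit3b and Ifit3. A large glial group of 1384 and 1319 cells is called unassigned glia (glia unresolved in the plots), because its scores for non-myelinating Schwann and satellite markers, 0.226 and 0.143, lay closer than the margin of 0.25 required for a name. Its summed non-myelinating Schwann markers were 90.2% and 88.8% of that class's level, and its satellite markers 45.8% and 43.9% of the satellite level. Its Malat1 level, a nuclear RNA, was 117296 and 124460.0 CPM, against 63812 and 68839 in satellite glia.

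Collagens made up 0.631% and 0.685% of all UMIs. Macrophages, which are not known as a main source of fibrillar collagen, served as a rough reference for free RNA. They had 66.2 and 40.3 CPM of Col1a1 and 97.6 and 76.6 CPM of Col3a1, the main fibrillar chains. This reference is not a floor, since Col1a1 was lower still in satellite glia. Classes also differed in depth, with medians of 8114 and 8009 UMIs per cell in macrophages and 19424.5 and 22038 in neurons. Of the 44 genes, 34 reached 20 CPM in both libraries in at least 1 class or subtype, 32 of them in a class. Their highest class was fibroblast for 15, unassigned glia for 5, non-myelinating Schwann for 4, perineurial, mural and lymphatic endothelial for 2 each, and blood endothelial and myelinating Schwann for 1 each. The libraries of the highest class overlapped those of the class below it for Col8a1 (fibroblast and perineurial) and Col18a1 (lymphatic endothelial and fibroblast).

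**Figure D1:**
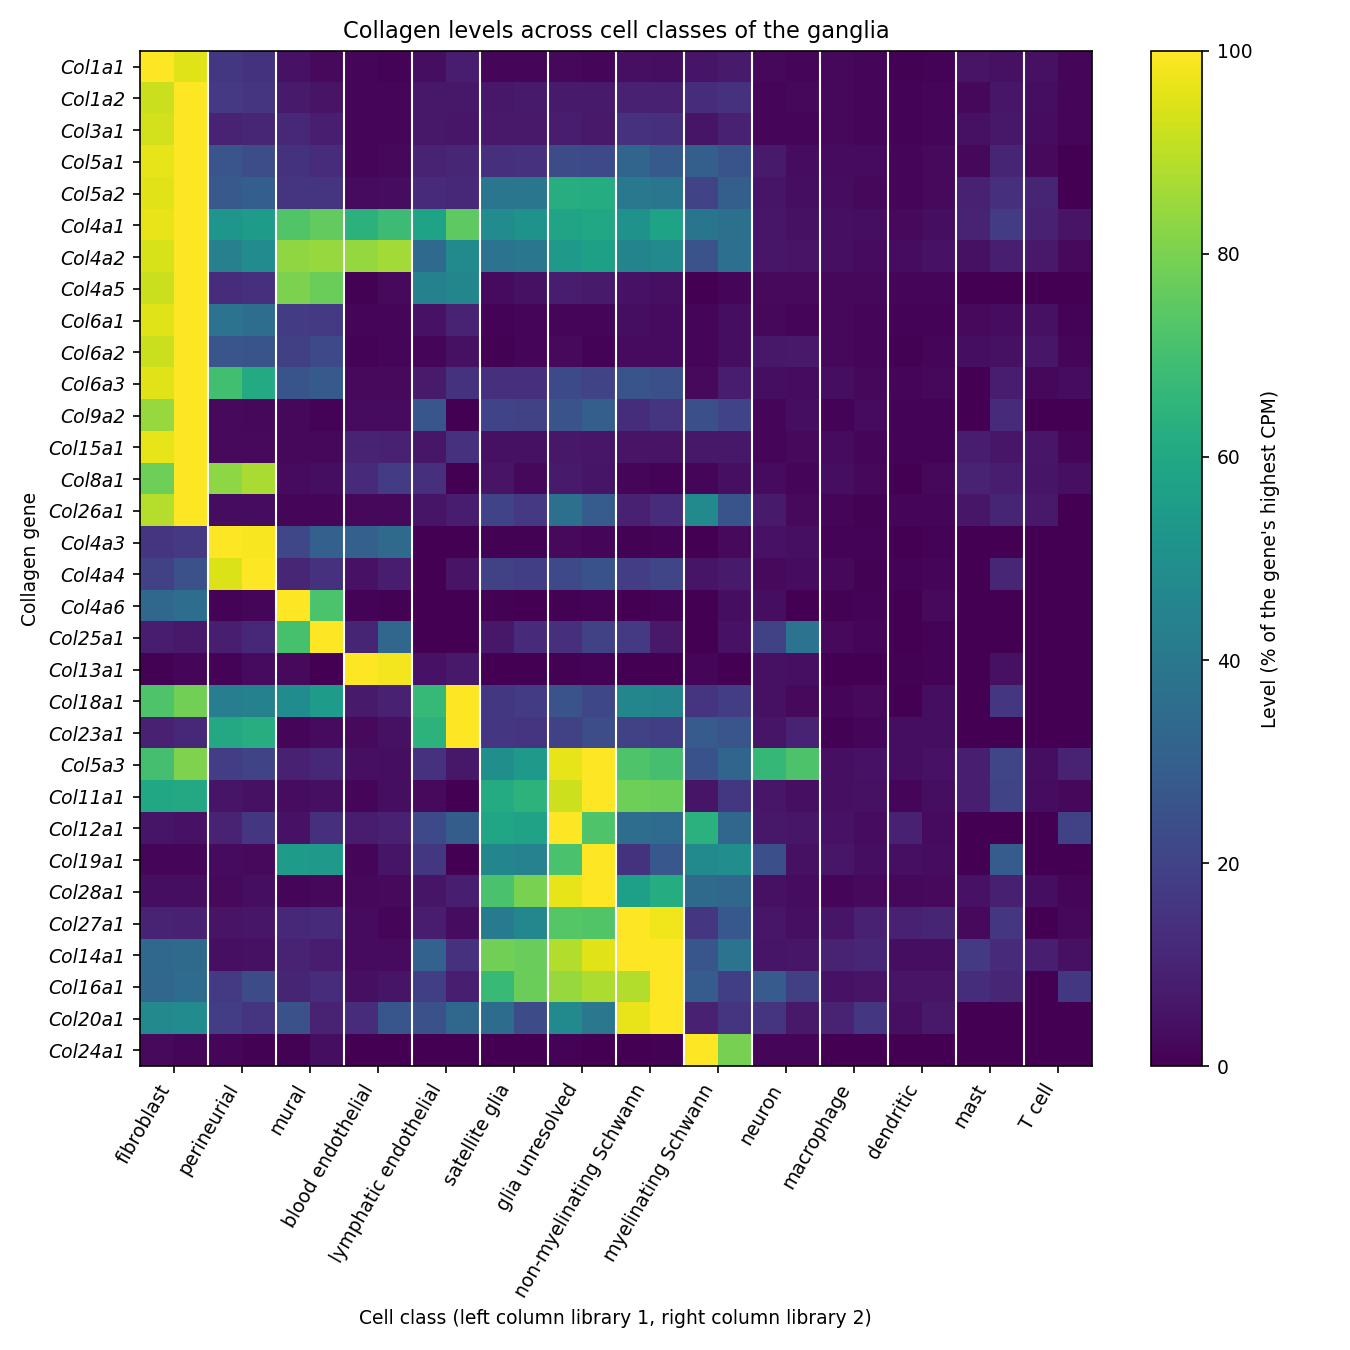
Level of the 32 collagen genes that reached 20 CPM in both libraries of a class, as a percentage of each gene's highest CPM. Columns are the 14 classes, library 1 left and library 2 right. Fibroblasts lead 15 genes, and Col5a3, Col11a1, Col14a1, Col16a1, Col27a1 and Col28a1 are among the genes highest in a glial column. All of these are lower in myelinating Schwann cells than in the other glial classes, and Col5a3 and Col11a1 are also high in fibroblasts. Single blocks mark Col13a1 (blood endothelial) and Col24a1 (myelinating Schwann).

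Fibroblasts held the bulk of the fibrillar collagen RNA. Col1a1 and Col1a2, the chains of type I collagen, stood at 3164 and 3014 CPM and 5096 and 5541 CPM in libraries 1 and 2, and Col3a1, the chain of type III, at 4386 and 4706 CPM. Fibroblasts supplied 87.8% and 90.6% of the Col1a1 UMIs and 79.9% and 83.0% of the Col3a1 UMIs in the classes. Collagens were 1.94% and 2.04% of fibroblast UMIs, the largest share of the 14 classes, and 72.9% and 72.7% of these were fibrillar chains. Among the 14 classes fibroblasts were also highest for the basement membrane genes Col4a1, Col4a2 and Col4a5. The pericyte subtype nevertheless exceeded them for Col4a1 and Col4a2, the capillary subtype for Col4a2 and the smooth muscle subtype for Col4a5. Col15a1, the type XV proteoglycan, stood at 1814 and 1886 CPM in fibroblasts. The next class for Col15a1 was lymphatic endothelial, at 114 and 273 CPM.

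Perineurial cells, which wrap nerve bundles and ganglia, had the highest Col4a3 and Col4a4 of the 14 classes and less of most other chains than fibroblasts. In the comparison of fibroblasts with perineurial cells, 27 of the 37 collagens that passed the filter on low counts were higher in fibroblasts and 3 lower. Over all 16552 genes tested, 20.7% were higher and 16.6% lower (edgeR's quasi-likelihood test, Benjamini-Hochberg adjusted p under 0.05, libraries as blocks, here and below). The median log2 fold change was 1.05 over the 37 collagens and 0.035 over all genes. The filter is passed through the classes where a gene is high, so counts of the genes tested do not describe all 44.

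Col15a1 was 48.7 and 47.7 CPM in perineurial cells, far below either fibroblast library, and had the largest difference (log2 5.42 ± 0.09, edgeR adjusted p = 4.8e-110). Col9a2, a fibril-associated chain, was at 42.5 and 50.4 CPM in fibroblasts and 1.23 and 1.13 CPM in perineurial cells (log2 5.40 ± 0.27, edgeR adjusted p = 4.6e-44). Col26a1, a little-studied secreted collagen, was 105 and 118 against 3.98 and 3.75 CPM (log2 4.99 ± 0.18, edgeR adjusted p = 2.6e-62). The fibrillar chains followed, with log2 fold changes of 3.71 for Col11a1, 3.41 for Col3a1, 2.83 for Col1a1 and 2.75 for Col1a2. Other large differences were Col4a6 at 4.89, Col6a6 at 3.65, Col14a1 at 3.13, Col4a5 at 3.03, and Col5a1 and Col5a3 at 2.14 and 2.13. Type VI chains differed less: Col6a1 was 520.2 and 547 CPM in fibroblasts and 207 and 196 CPM in perineurial cells, and Col6a3 was 354 and 371 and 259 and 226 CPM (log2 1.56 and 0.74). Col8a1, a short-chain network collagen, passed the threshold with opposite directions in the libraries, at 115 and 147 CPM in fibroblasts and 122 and 128 CPM in perineurial cells.

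The 3 genes higher in perineurial cells were Col4a3, Col4a4 and Col23a1. Col4a3 was 77.8 and 76.9 CPM in perineurial cells and 11.8 and 12.95 CPM in fibroblasts (log2 -2.49 ± 0.15, edgeR adjusted p = 3.6e-35). Col4a4, its head-to-head neighbour, was 161 and 170.0 against 33.9 and 42.3 CPM (log2 -1.96 ± 0.09, edgeR adjusted p = 1.6e-49). Both encode chains of the alpha3-alpha4-alpha5 form of type IV collagen, known from kidney and lung basement membranes. The remaining chain of that form, Col4a5, was low in perineurial cells, at 17.5 and 18.8 CPM. Col23a1, a transmembrane collagen, was 87.6 and 90.8 against 13.6 and 16.1 CPM (log2 -2.43 ± 0.12, edgeR adjusted p = 3.5e-46). In all of these the libraries of the classes did not overlap.

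**Figure D2:**
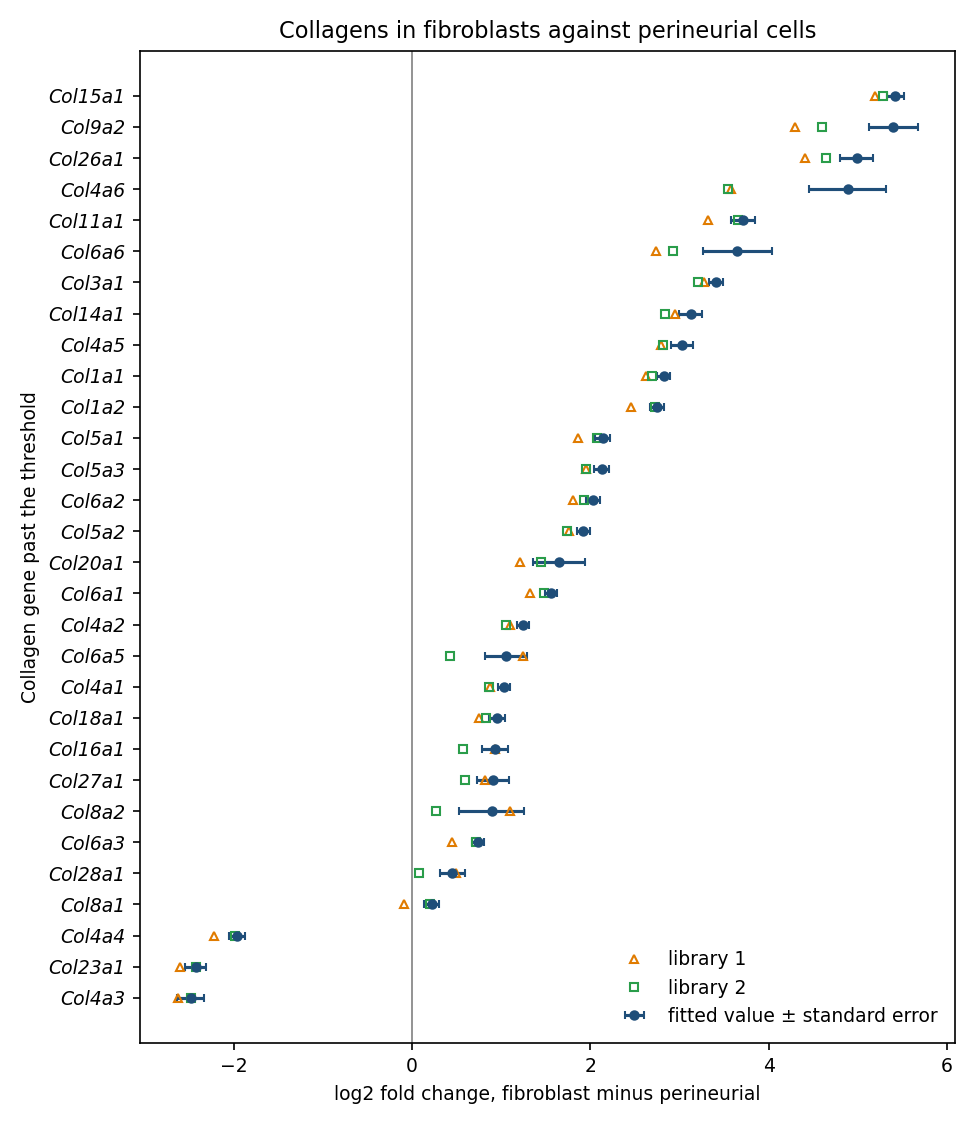
Log2 fold change, fibroblast minus perineurial, of the 30 collagen genes past the threshold. Filled points are fitted values with their standard errors, and open triangles and squares are log2 ratios of CPM + 1 in libraries 1 and 2, without the fit's scaling. Col15a1 (5.42) is at the top, Col8a1 crosses 0 in 1 library, and Col4a4, Col23a1 and Col4a3 lie below 0.

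Genes that make, cut, bind or degrade collagen were read from lists chosen with earlier results known. Of 21 genes of chain folding and hydroxylation, 17 were higher in fibroblasts and 1 lower than in perineurial cells, among them Serpinh1, the collagen chaperone (log2 2.16), and Fkbp10, a prolyl isomerase (1.82). P3h2, a prolyl 3-hydroxylase, was lower (-0.86). Of 14 tested genes of procollagen cleavage and crosslinking, 9 were higher and 2 lower. Lox, the crosslinking oxidase, was higher (4.14), and Bmp1, which removes the C-terminal propeptide, was lower (-1.94). Of 16 tested genes of collagen breakdown, 11 were higher, with Mmp2, a gelatinase, at 4.06. Of 11 tested collagen receptors 2 were higher and 4 lower, with the integrin chain Itga11 at 4.07 and the receptor kinase Ddr1 at -1.02. Among 18 other basement membrane genes 8 were higher and 5 lower, with Hspg2 (perlecan) at 2.70 and Lama4, a laminin chain, at -1.56.

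The fibroblasts fell into 3 named groups: 868 and 944 cells led by Spp1 and Ccl11, 731 and 665 led by Dlk1 and Myoc, and 414 and 424 led by genes such as Dpt, Inmt and Pi16, here the Clec3b/Inmt group. A further 240 and 247 fibroblasts matched none of these and entered no comparison. Type I and III chains differed little between the groups. Col1a1 was 3139 and 2999.9 CPM in the Spp1/Ccl11 group, 3061 and 2808 in the Dlk1/Myoc group and 3505 and 3528 in the Clec3b/Inmt group. Col3a1 was 4185 and 4618, 4278 and 4534 and 5345 and 5572 CPM in the same order. Larger differences lay in other chains, among them Col15a1, Col14a1, Col6a5 and Col6a6.

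In the Clec3b/Inmt group 10 collagens were higher and 14 lower than in the other 2 groups. Over all 16037 genes tested 15% were higher and 15.8% lower, and the median log2 fold change was -0.31 over the collagens and 0.0021 over all genes. Col15a1 was 241 and 224 CPM here, against 2141 and 2202 in the Spp1/Ccl11 group and 2104 and 2194 in the Dlk1/Myoc group (log2 -3.29 ± 0.08, edgeR adjusted p = 2.1e-84). Col26a1 was 4.39 and 7.35 CPM, against 126 and 135 and 121 and 142 CPM in those groups (log2 -4.54 ± 0.21, edgeR adjusted p = 4.3e-47). The Clec3b/Inmt libraries lay below all the others for both genes. Col9a2 (-4.56) and Col11a1 (-3.12), a fibril-nucleating chain, were lower too, as were Col8a1 (-2.63), Col5a3 (-2.31), Col18a1 (-1.90), Col4a2 (-1.75), Col4a1 (-1.67), Col8a2 (-1.45), Col28a1 (-0.76) and Col5a2 (-0.61). The call of Col8a2 was lost with DESeq2, and the Col28a1 difference turned to 0.72 with doublets kept.

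The genes higher in the Clec3b/Inmt group were led by Col6a5, an alternative to the Col6a3 chain of type VI collagen. Its levels were 123 and 98.6 CPM, with 6 UMIs in all cells of the other 2 groups (log2 8.10 ± 0.31, edgeR adjusted p = 2.4e-56). Col6a6, its neighbour on chromosome 9 and a chain of the same kind, was 66.5 and 60.6 CPM, against 3.97 and 4.13 and 6.20 and 7.42 CPM (log2 3.51 ± 0.22, edgeR adjusted p = 3.3e-33). Col14a1, which binds fibrils, was 558 and 604 CPM, against 28.8 and 33.3 and 41.7 and 40.1 CPM (log2 3.95 ± 0.08, edgeR adjusted p = 2.4e-91). The common type VI chains differed less, with Col6a1 at 566 and 574 CPM against 516 and 553 and 536 and 567, and Col6a3 and Col6a2 slightly lower (log2 -0.31 and -0.23). Col4a6 (1.24) and Col16a1 (0.78) were also higher. Small calls for Col3a1, Col5a1 and Col1a1 (log2 0.23, 0.18 and 0.15) each failed under 5 or 6 of the 8 other settings, and the count of higher genes was 6 with all UMIs or without the replicate block. The Col19a1 call rested on 5 UMIs in each arm and failed under 4 settings, and that of Col20a1 (log2 0.70) failed under 2.

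The Spp1/Ccl11 and Dlk1/Myoc groups are each compared with a mean that contains the Clec3b/Inmt group, so the 3 comparisons share cells. For Spp1/Ccl11 fibroblasts 13 collagens were higher and 4 lower, with 13.9% and 9.05% over all genes. Over all genes 60.6% of calls were on the higher side, and 50.4% with DESeq2's size factors. For Dlk1/Myoc fibroblasts 12 were higher and 7 lower, with 8.09% and 8.96% over all genes. In both, Col26a1 (log2 2.33 and 2.21), Col9a2 (2.40 and 2.16) and Col15a1 (1.72 and 1.57) were higher, and Col14a1 (-2.20 and -1.74) and Col6a6 (-2.24 and -1.27) lower. The Dlk1/Myoc count of lower genes held Col1a1, Col1a2 and Col3a1, each lost under 5 of the 8 other settings, and it was 4 with DESeq2 or without the replicate block.

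**Figure D3:**
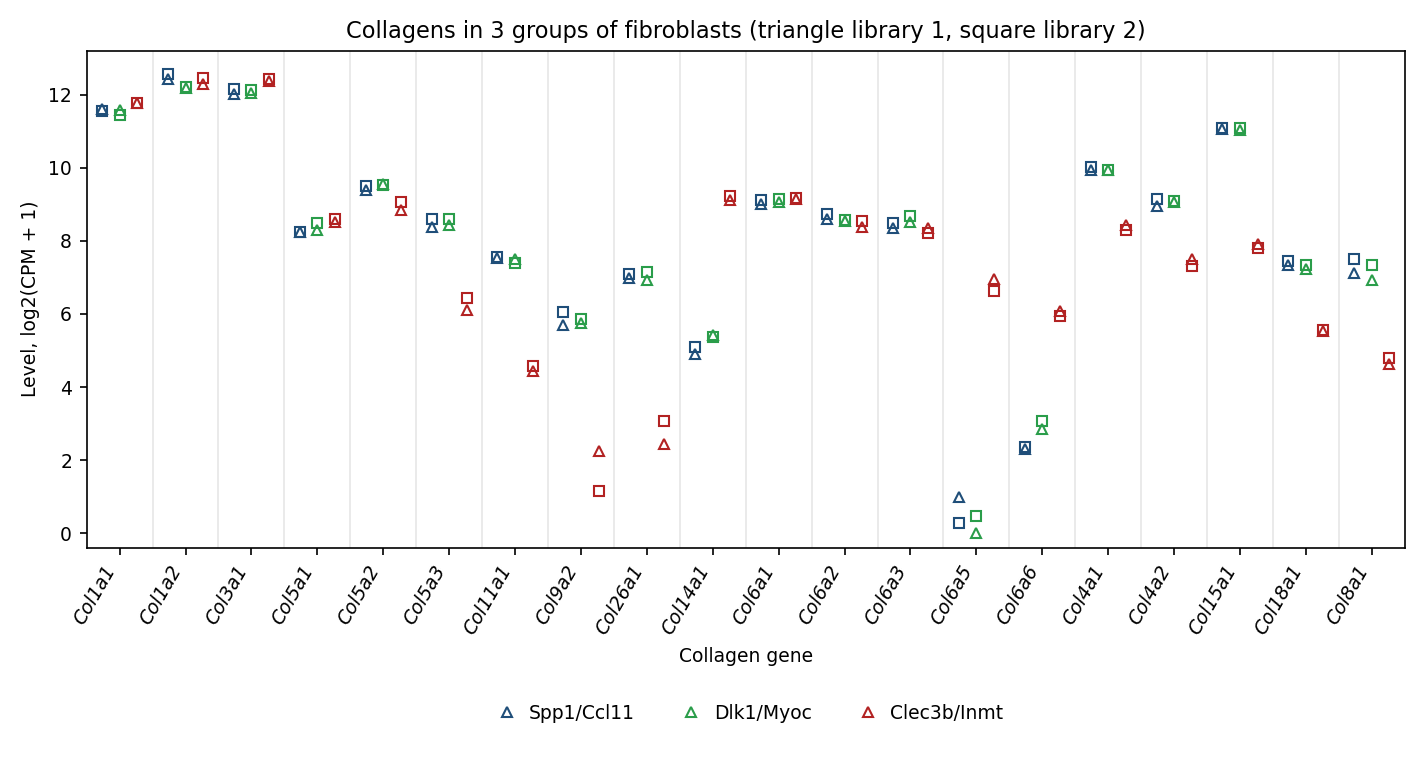
Level, as log2(CPM + 1), of 20 collagen genes in the 3 named fibroblast groups, with a triangle for library 1 and a square for library 2. Type I, III and most type VI chains sit together, while Col15a1, Col26a1, Col9a2, Col11a1 and Col8a1 are low and Col14a1, Col6a5 and Col6a6 high in the Clec3b/Inmt group.

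Processing genes also split the fibroblast groups. In the Clec3b/Inmt group 9 of 14 tested genes of procollagen cleavage and crosslinking were higher and 3 lower, with Pcolce2, a procollagen proteinase enhancer (log2 9.60), Lox (4.32) and Loxl1 (4.22). Of 18 other basement membrane genes 4 were higher and 9 lower, with Lamc3, a laminin chain (-4.52), and Hspg2 (-1.95) among the lower. Of 14 fibril-associated proteoglycans and glycoproteins 7 were higher and 4 lower, with Tnxb (2.37) and Fn1 (1.57), fibronectin, among the higher. Of 21 genes of chain folding 2 were higher and 9 lower, with Colgalt2, which adds galactose to hydroxylysine, at -3.85.

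In the vessel wall, Col4a1 and Col4a2 were found in both mural and blood endothelial cells, while Col4a5, Col4a6 and Col4a4 were higher in mural cells (log2 0.91 for Col4a4). Type IV chains made up 59.96% and 60.9% of collagen UMIs in blood endothelial cells and 40.3% and 44.8% in mural cells, the pericytes and smooth muscle around vessels. Col4a1 was 659 and 687 CPM in mural and 583 and 619 CPM in blood endothelial cells, and Col4a2 was 409.8 and 417 and 415 and 425 CPM. Neither of these 2 passed the test between the classes. Mural cells had 18 collagens higher and 3 lower, against 22.4% and 23.1% over all genes, with a median log2 fold change of 1.36 over the collagens and 0.0032 over all genes. With doublets kept, 5 were lower.

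Col4a5 was 111 and 107 CPM in mural cells and 0.736 and 3.35 CPM in blood endothelial cells (log2 5.68 ± 0.22, edgeR adjusted p = 4.6e-59). Col4a6, which starts head to head with Col4a5 on the X chromosome at a distance of 1308 bases, was 54.1 and 38.8 CPM in mural cells, with 3 UMIs in blood endothelial cells. The ratio of its levels was 123 (exact 95% interval 41.5 to 603, for counting error only). Type VI chains were higher in mural cells as well, with log2 fold changes of 3.89 for Col6a2, 3.42 for Col6a3 and 3.33 for Col6a1. Further genes higher in mural cells were Col19a1 (3.80), Col3a1 (2.72), Col5a1 (2.71), Col18a1 (2.59), Col5a2 (2.23), Col27a1 (2.21), Col1a2 (2.20) and Col25a1 (1.94). Col1a1 varied between the libraries of mural cells, at 152 and 74.5 CPM.

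Col13a1, a transmembrane collagen, was highest in blood endothelial cells. It stood at 136 and 134 CPM there and at 3.60 and 0 CPM in mural cells (log2 -6.24 ± 0.26, edgeR adjusted p = 9.3e-56), and 92.7% and 89.6% of its UMIs came from this class. Within the class it was 203 and 188 CPM in capillary, 50.5 and 71.5 CPM in venous and 24.6 and 22.3 CPM in arterial cells. The library values of these types did not overlap. The arterial values rest on few UMIs, from sums of 121780 and 179203 UMIs over all genes, so their distance from the venous values is imprecise. Col15a1 (log2 -2.23) and Col8a1 (-2.27) were the other genes higher in blood endothelial than in mural cells.

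Smooth muscle and pericytes divided the mural chains between them. Of the 37, 4 were higher and 15 lower in smooth muscle, against 9.53% and 9.23% over all genes, with medians of -1.01 over the collagens and -0.011 over all genes. Smooth muscle had Col4a6 at 76.03 and 60.3 CPM, against 11.998 and 2.77 CPM in pericytes (log2 3.42 ± 0.39, edgeR adjusted p = 1.1e-13). Col4a5 was 149.7 and 142 against 37.5 and 48.5 CPM (log2 1.94 ± 0.19, edgeR adjusted p = 1.3e-17) and Col18a1, the source of endostatin, 132 and 145 against 17.997 and 36.03 CPM (log2 2.52 ± 0.22, edgeR adjusted p = 4.3e-20). Smooth muscle was higher for all of these genes in both libraries, without overlap. The fourth was Col19a1, a fibril-associated chain, at 32.9 and 34.7 CPM with 3 UMIs in pericytes, a ratio of 15.6 (exact 95% interval 5.17 to 77.4).

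Pericytes had more Col4a1, at 1069 and 1031 against 445 and 482 CPM (log2 -0.99 ± 0.09, edgeR adjusted p = 7.1e-21), and more Col4a2 (log2 -1.24). Their Col3a1 was 1405 and 910.4 against 89.4 and 87.6 CPM in smooth muscle (log2 -3.52 ± 0.14, edgeR adjusted p = 4.0e-52), and Col25a1, a transmembrane collagen, was 70.5 and 91.5 against 6.27 and 9.09 CPM (log2 -3.20 ± 0.36, edgeR adjusted p = 6.1e-14). The next in size were Col5a1 (-2.91), Col6a1 (-2.85), Col6a2 (-2.75), Col5a2 (-2.67), Col1a1 (-2.44), Col5a3 (-2.04), Col4a4 (-1.92), Col1a2 (-1.54), Col4a3 (-1.48), Col6a3 (-1.46) and Col15a1 (-1.01). Pericyte Col1a1 was uneven between libraries, at 361 and 139 CPM, against 43.1 and 36.4 CPM in smooth muscle. The 12 fibroblast markers summed to 2287 and 2379 CPM in pericytes and 1133 and 1164 CPM in smooth muscle, and their part in these differences was not tested. With doublets kept and cells regrouped, the direction of Col1a1 and Col1a2 turned (log2 1.90 and 0.87), and 9 genes in place of 4 were higher in smooth muscle.

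Arterial cells were few, 37 and 39, and had 3 collagens higher and 5 lower than the other blood endothelial types, against 2.75% and 6.17% over all genes. Over all genes 30.8% of calls were on the higher side, and 43.9% with DESeq2's size factors, which moved the median of all genes from -0.36 to -0.17. Col8a1, a collagen known from vessel walls, was 287 and 324 CPM in arterial cells, 8.06 and 12.5 in capillary and 3.37 and 4.17 in venous cells (log2 5.30 ± 0.31, edgeR adjusted p = 2.0e-34). Col18a1 was 123 and 151 CPM against 10.7 and 9.34 and 8.08 and 7.64 (log2 3.64 ± 0.37, edgeR adjusted p = 1.1e-15). Col5a2 was higher (log2 2.68), and Col15a1 (-3.23), Col13a1 (-2.56), Col4a2 (-1.24) and Col4a1 (-0.70) were lower. The fifth, Col4a3, rested on 1 UMI in arterial cells and was lost with DESeq2.

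**Figure D4:**
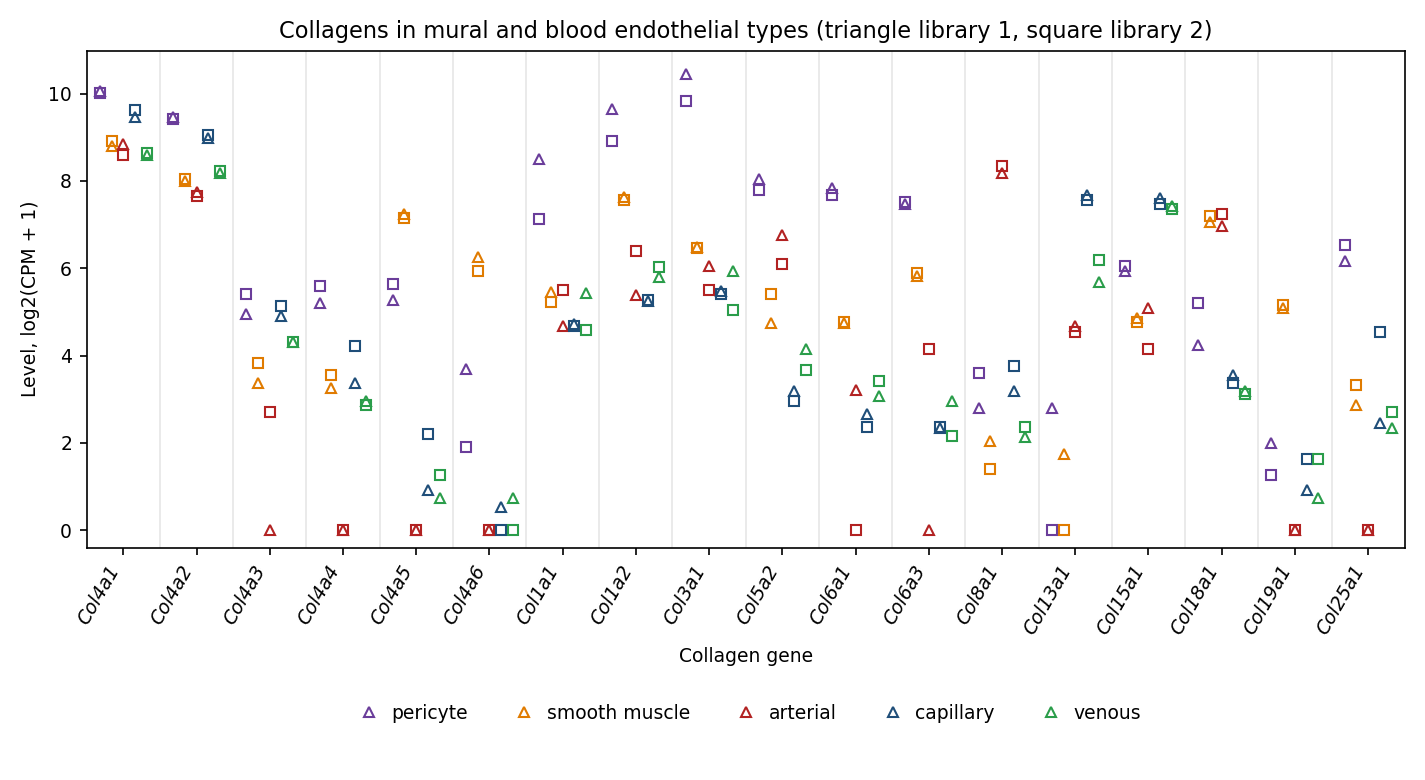
Level, as log2(CPM + 1), of 18 collagen genes in pericytes, smooth muscle and 3 blood endothelial types, with a triangle for library 1 and a square for library 2. Col4a5 and Col4a6 are highest in smooth muscle, Col3a1 in pericytes, Col8a1 in arterial and Col13a1 in capillary cells.

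Lymphatic endothelial cells, 36 and 29 in number, led Col23a1 at 94.2 and 145 CPM and Col18a1 at 128 and 191 CPM, and had Col4a5 at 60.6 and 63.6 CPM. These levels come from sums of 148616 and 110061 UMIs and rest on few UMIs, 19 and 21 for Col18a1. Perineurial cells, with a mean of 89.2 CPM of Col23a1, were close to the lymphatic value in library 1. Col13a1, high in blood endothelium, was 6.73 and 9.09 CPM here, also from few UMIs. The fibroblast markers summed to 3142 and 2580.4 CPM in this class, above the level in blood endothelial cells (952 and 990.3 CPM). Their part in the lymphatic collagen levels was not tested.

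Among the 14 classes a glial class was highest for Col5a3, Col11a1, Col14a1, Col16a1, Col27a1 and Col28a1. Of the genes that reached 20 CPM in both libraries of a class, the same held at lower levels for Col12a1, Col19a1, Col20a1 and Col24a1. These chains were not all confined to glia. Fibroblasts came second for Col5a3, with a mean of 325 CPM, and the Clec3b/Inmt fibroblasts had more Col14a1 than any glial class. Col28a1 is a collagen known from peripheral nerve. Its level was 1029 and 1068 CPM in unassigned glia, 760.3 and 854 in satellite glia, which surround neurons, 601 and 662 in non-myelinating Schwann cells and 368 and 354 in myelinating Schwann cells. Fibroblasts had 37.97 and 40.9 CPM and macrophages 19.1 and 25.3 CPM. In this order no library of one glial class overlapped those of the next. Glia also held type IV chains, with Col4a1 at 438 and 466 CPM in satellite glia and 467 and 525 CPM in non-myelinating Schwann cells.

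Non-myelinating Schwann cells had 14 collagens higher and 6 lower than satellite glia, where 11.5% and 14.9% of all genes were called, with medians of 0.18 over the collagens and 0.014 over all genes. Col27a1, a fibrillar chain, was 265 and 259 CPM against 110.2 and 123 CPM (log2 1.05 ± 0.07, edgeR adjusted p = 5.7e-30). Col18a1 was 87.9 and 86.4 against 30.8 and 33.4 CPM (log2 1.32 ± 0.11, edgeR adjusted p = 5.2e-24), and Col3a1 662 and 629 against 314 and 328 CPM (log2 0.89 ± 0.08, edgeR adjusted p = 4.0e-21). In these genes the Schwann libraries were the higher ones. Col20a1 (log2 1.63), Col6a1 (1.55), Col1a1 (1.48), Col6a2 (1.38), Col5a1 (1.01), Col6a3 (0.77) and Col5a3 (0.35) were also higher, and Col1a2 (0.31) was lost under 3 of the 8 other settings and Col16a1 (0.26) under 1. Col14a1 (0.24) and Col11a1 (0.18) passed with small differences. Satellite glia had more Col28a1 (log2 -0.47 ± 0.06, edgeR adjusted p = 8.3e-12), Col19a1 (-1.23), Col26a1 (-0.87), Col12a1 (-0.84) and Col8a1 (-1.48). Col9a2 (-0.60) failed under 6 settings and Col19a1 with DESeq2. Of 18 other basement membrane genes 6 were higher in the Schwann cells and 2 lower, with Hspg2 at 0.67 and Sparc, which binds collagen, at -0.46.

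Myelinating Schwann cells were marked by Col24a1, a fibrillar chain. It was 71.1 and 56.6 CPM there, with 2 UMIs in non-myelinating Schwann cells. The ratio of levels was 260 (exact 95% interval 68.7 to 2197), and fibroblasts, the next class, had 1.89 and 1.24 CPM. Compared with non-myelinating cells, 4 collagens were higher and 14 lower, against 6.11% and 10.5% of all genes, with medians of -0.54 over the collagens and -0.17 over all genes. With doublets kept, 7 were higher. Over all genes 36.8% of calls were on the higher side, against 50.3% with DESeq2's size factors, which moved the median of all genes to -0.028.

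The lower genes took in most of the chains for which a glial class was highest. Col11a1 was 14.7 and 42.5 CPM against 204 and 202 CPM (log2 -2.91 ± 0.23, edgeR adjusted p = 3.9e-25), Col27a1 41.7 and 72.8 against 265 and 259 CPM (log2 -2.31 ± 0.18, edgeR adjusted p = 1.2e-25), and Col14a1 103 and 146 against 383 and 384 CPM (log2 -1.75 ± 0.14, edgeR adjusted p = 3.3e-25). All myelinating libraries lay below the non-myelinating ones for these genes. Col20a1 had 3 UMIs in myelinating cells, at a level 7.97 times lower (exact 95% interval 2.69 to 39.0), and Col6a3 (-2.38), Col16a1 (-2.17), Col4a4 (-1.74), Col18a1 (-1.59), Col5a3 (-1.45), Col3a1 (-0.996), Col28a1 (-0.96), Col5a2 (-0.77), Col4a2 (-0.71) and Col4a1 (-0.68) followed. The calls of Col4a4 and Col3a1 failed under 1 other setting each. Col26a1 was higher in myelinating cells, at 56.4 and 30.3 against 10.96 and 14.8 CPM (log2 1.56 ± 0.33, edgeR adjusted p = 5.1e-05). The calls of Col1a1 (log2 0.56) and Col1a2 (0.41) were lost with DESeq2 and without the replicate block, which left 2 genes higher in each. The collagen receptors Itga1 (-2.76) and Itga2 (-2.98), integrin chains, were lower, in a list with 1 of 11 tested genes higher and 4 lower.

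The balance of chains within a type differed between classes. UMI counts of different genes are captured with different efficiency, so each ratio is read across classes and not as a ratio of molecules. The ratio of Col1a1 to Col1a2 was 0.621 and 0.544 in fibroblasts, 0.552 and 0.553 in perineurial cells and 0.531 and 0.497 in macrophages. It was 0.126 and 0.0960 in satellite glia, 0.261 and 0.237 in non-myelinating and 0.261 and 0.286 in myelinating Schwann cells. Every glial library lay below every library of those first 3 classes. Low ratios were not confined to glia, however. The mural libraries overlapped those of myelinating Schwann cells, and smooth muscle, at 0.218 and 0.193, lay below both Schwann classes. Dendritic cells, at 0.379 and 0.371, were also below the first 3 classes. In satellite glia Col1a2 was 362 and 392 CPM while Col1a1, at 45.6 and 37.6 CPM, was lower than in macrophages in each library (log2 -0.44).

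Glia also differed from fibroblasts and macrophages for type VI collagen, whose Col6a3 chain joins Col6a1 and Col6a2. The ratio of Col6a3 to Col6a1 was 0.680 and 0.677 in fibroblasts and 1.33 and 1.06 in macrophages, but 9.73 and 7.67 in satellite glia and 4.54 and 5.51 in non-myelinating Schwann cells. Col6a3 in satellite glia was 49.6 and 51.7 CPM, and Col6a1 5.10 and 6.73 CPM, under the 10.8 and 7.39 CPM of macrophages. The ratio of Col15a1 to Col18a1 was 13.1 and 12.6 in fibroblasts and 13.6 and 9.88 in blood endothelial cells, and fell below 1 in perineurial (0.598 and 0.567) and mural cells (0.422 and 0.391). These ratios carry no test.

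**Figure D5:**
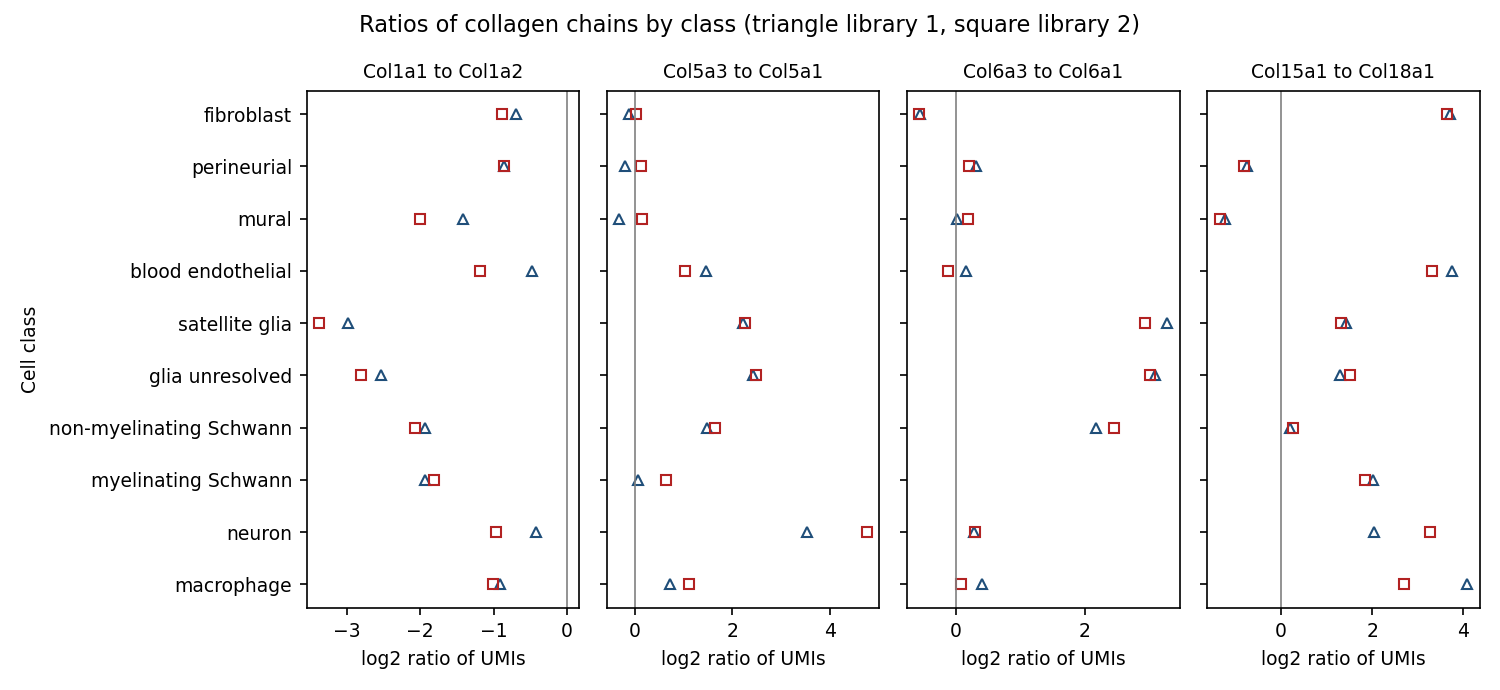
Log2 ratio of UMIs of paired collagen chains in 10 classes, with a triangle for library 1 and a square for library 2. A ratio is drawn where both genes had at least 10 UMIs in each library. Satellite and unassigned glia sit at the low end for Col1a1 to Col1a2 and at the high end for Col6a3 to Col6a1, and neurons are farthest right for Col5a3 to Col5a1.

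Neurons had the least collagen RNA of the classes outside the immune cells, 0.098% and 0.097% of UMIs, against 0.363% and 0.384% in satellite glia. Of the 37 tested, 9 were higher and 23 lower than in satellite glia, with 37.2% and 31.1% of all genes called and medians of -1.75 over the collagens and 0.15 over all genes (0.37 with DESeq2's size factors). Col28a1 was 47.5 and 36.4 CPM (log2 -4.41 ± 0.10, edgeR adjusted p = 1.5e-94), Col14a1 21.1 and 22.6 CPM (log2 -3.94 ± 0.12, edgeR adjusted p = 8.0e-75) and Col4a1 53.6 and 41.5 CPM (log2 -3.40 ± 0.10, edgeR adjusted p = 1.3e-73). All lay far below the satellite glia libraries given above, or 302 and 297 CPM for Col14a1. Col11a1 (-3.80), Col12a1 (-3.34), Col27a1 (-3.23), Col5a2 (-3.22), Col9a2 (-3.05), Col4a2 (-2.91), Col4a4 (-2.86), Col18a1 (-2.42) and Col3a1 (-2.14) were the next in size. The chaperone Serpinh1 was lower as well (-3.26), in a list of 21 folding genes with 3 higher and 13 lower.

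Neurons held Col5a3, a chain of type V collagen, near the glial level. It was 286 and 309.9 CPM in neurons, 214 and 232 CPM in satellite glia and 17.5 and 21.1 CPM in macrophages. Its difference from macrophages was log2 3.70 ± 0.11, edgeR adjusted p = 2.3e-74. Against satellite glia the small difference (log2 0.25) failed under 3 other settings and turned to -0.0963 (adjusted p = 0.23, edgeR) with neurons of any depth. Its partners were low in neurons, Col5a1 at 24.8 and 11.5 CPM and Col5a2 at 39.4 and 26.7 CPM, and the ratio of Col5a3 to Col5a1 was 11.5 and 26.9, against 4.63 and 4.75 in satellite glia and 0.922 and 1.01 in fibroblasts. The neuron libraries were the highest of the classes with a ratio.

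Type VI chains also differed. Col6a2 was 24.8 and 26.3 CPM in neurons and 3.03 and 5.42 CPM in satellite glia (log2 2.43 ± 0.24, edgeR adjusted p = 6.1e-18), while Col6a1 was 10.97 and 10.1 and 5.10 and 6.73 CPM, a small call that failed under 2 settings. Col6a5 was 7.31 and 14.3 CPM, with 1 UMI in satellite glia, a ratio of 149 (exact 95% interval 25.5 to 6010). Col25a1, a membrane collagen known from neurons, was 7.72 and 15.2 against 2.62 and 4.98 CPM (log2 1.42). Col13a1 (3.49) and Col4a3 (2.54) were higher at levels under 10 CPM, and the Col24a1 call rested on 5 UMIs in neurons and 0 in satellite glia. Col1a1 was 71.1 and 60.9 CPM in neurons, within the range of the macrophage and T cell libraries, the latter at 139.8 and 53.2 CPM. The 12 fibroblast markers summed to 767 and 1099.9 CPM in neurons and 1174 and 1144 CPM in satellite glia.

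Against macrophages, 33 collagens were higher in fibroblasts (35.5% of all genes), 28 in non-myelinating Schwann cells (32.8%), 26 in perineurial cells (31.5%), 26 in satellite glia (34.8%), 24 in myelinating Schwann cells (17.3%) and 22 in mural cells (28.3%). The counts were 14 in neurons (38.7%), 12 in lymphatic (8.51%) and 10 in blood endothelial cells (27%). With doublets kept they were 8 in neurons and 5 in lymphatic cells. All these comparisons share the macrophage sums. In blood endothelial cells 7 were lower than in macrophages (25.1% of all genes), among them Col1a1, Col1a2 and Col3a1. The levels of these named chains were therefore not above the macrophage reference. In satellite glia 3 were lower (30.2%), Col1a1, Col6a1 and Col6a2. Of the immune classes, dendritic cells had 2 higher (16.6%) and mast cells 9 (6.68%). The dendritic count was 1 or 0 under 5 of the 8 other settings. Mast cells also had fibroblast markers at 1786 and 4259 CPM, and no collagen was higher in them with doublets kept. T cells had 0 higher with edgeR (6.4% of all genes), with DESeq2, or at an unadjusted p under 0.05.

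Of the 44 genes, 10 stayed under 20 CPM in at least 1 library of every class and subtype. Col2a1, Col6a4, Col7a1, Col9a1, Col10a1, Col17a1 and Col22a1 had 12 to 66 UMIs in all and did not pass the filter. Col8a2, Col9a3 and Col11a2 were tested. Col9a3 was highest in myelinating Schwann cells at 22.1 and 12.1 CPM, Col11a2 in unassigned glia at 16.6 and 11.3 CPM, and Col8a2 in fibroblasts at 8.35 and 9.22 CPM.

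Over the 14 class means, Pearson's r of log2(CPM + 1) gives the genes most alike, as a description of classes that share libraries and free RNA. Col4a1 was closest to Col4a2 (r = 0.974), with which it starts head to head on chromosome 8, the annotated starts overlapping by 22 bases. Col1a2 was closest to Col3a1 (0.971), Col6a1 to Col6a2 (0.946), Col9a2 to Col26a1 (0.935), Col5a3 to Col16a1 (0.934) and Col28a1 to Col14a1 (0.884). The other head-to-head pairs were less alike, with 0.60 for Col4a4 and Col4a3 and 0.70 for Col4a6 and Col4a5. Col13a1 and Col24a1 had no close partner, at 0.451 and 0.412 with their nearest.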

How the data were processed

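The 2 deposited tables, 1 per library, hold UMI counts per gene and cell barcode, made by the authors with Cell Ranger 6.1.2 on mm10 from 10x 3′ v3.1 libraries, per the submitters' processing notes and the labels' protocols. Levels of different genes are not read as ratios of molecules, since a 3′ count depends on capture. Shares of collagen UMIs by family carry the same limit. Each UMI was assigned at random (probability 0.5) to clustering or to measurement, so the clusters were not drawn on the counts tested. Doublets predicted with Scrublet (in scanpy) were removed. That prediction used all UMIs with the collagen rows included, so the choice of cells, unlike the clusters, was not independent of the counts tested. Cells were grouped with scanpy 1.11.5 (3000 variable genes without collagens, 30 components, Leiden resolution 1) and named from marker lists. The rules for leading genes, for merging monocytes with macrophages, for unassigned groups and for endothelial subtypes (resolution 0.5) were set after the clusters were seen. A cluster of 17 and 24 cells led by interferon-response genes stayed unnamed, so the comparison planned for interferon-responding fibroblasts was not run. Counts were summed per library and class and tested with edgeR 4.0.16 (quasi-likelihood, TMM, filterByExpr, library as block), in 1 fit of 28 sums over classes and 1 of 42 sums over subtypes. The block is used because cells of 1 library share its animals, preparation and free RNA. The procedure was tested on simulated data. The text names, per comparison, up to 12 collagens past the threshold by size in each direction, with others named after their values were seen. DESeq2 1.42.0 and the other alternatives stand in the closing section. The members and gene lists were chosen with earlier results of these data known. Intervals cover counting error only.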

Additional observations from a re-analysis of the deposited data

How the results depend on the processing

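Each of 198 results was recomputed under other settings, giving 2004 values. Of these, 1899 kept their direction and side of the threshold, or stayed within 1.5 times for a count. A further 83 kept the direction but lost the call, 17 counts moved further and 5 differences turned. The 1899 include the values with 1 library left out, which carry no test and were judged on direction alone. For single genes that direction was settled beforehand, since only genes with the same direction in both libraries were taken. With doublets kept, the number of collagens called was 5 lower in mural than in blood endothelial cells, 7 higher in myelinating than in non-myelinating Schwann cells, 9 higher in smooth muscle than in pericytes, and, against macrophages, 5 higher in lymphatic endothelial cells, 8 in neurons, 0 in dendritic cells and 0 in mast cells. Also with doublets kept, the log2 difference turned to 1.90 for Col1a1 and 0.87 for Col1a2 (smooth muscle minus pericyte), to -0.085 for Col28a1 in Dlk1/Myoc fibroblasts and to 0.72 for Col28a1 in Clec3b/Inmt fibroblasts. Neurons of any depth turned Col5a3 against satellite glia to -0.0963. DESeq2 called 2 higher in myelinating Schwann cells, 1 higher in dendritic cells and 4 lower in Dlk1/Myoc fibroblasts. Without the replicate block, the counts were 2 higher in myelinating Schwann cells, 1 higher in dendritic cells, 4 lower in Dlk1/Myoc fibroblasts and 6 higher in Clec3b/Inmt fibroblasts, and the last was also 6 with all UMIs. Dendritic cells had 1 higher with no filter on low counts and with collagens kept in clustering. DESeq2's size factors moved the share of calls on the higher side over all genes, against macrophages, from 38.8% to 49.8% in mast cells and 36.8% to 47.3% in T cells. The cause of these changes was not tested. Leaving out a library leaves 1 library and no test, and of the collagen counts recomputed this way 2 fell by 1, to 26 (fibroblast minus perineurial, higher) and 32 (fibroblast minus macrophage, higher). The lower calls against macrophages were not recomputed, and of the 4 in neurons 3 (Col27a1, Col15a1 and Col3a1) had opposite directions in the libraries. Lymphatic, arterial, mast and T cells had 29 to 67 cells a library, which limits the precision of their levels.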
